A study of Arabidopsis thaliana with 123 samples.

Results

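The subject of this section is a set of 200 Arabidopsis thaliana seed transcripts that stood high at 16 and 18 days after pollination (DAP) and low both before and after. They were chosen from the wild-type libraries of batch A by the ratio of the smaller of the mean levels at 16 and 18 DAP to the larger of the mean levels of 12 DAP seed and dry seed. Levels were CPM, counts scaled so that each library's sum is 1000000, with 1 CPM added to each mean, and the 200 genes with the largest log2 ratio were taken from the 37336 in the deposited table. The values of those wild-type libraries therefore chose the set and are given as a description. Batch B, grown in a separate round, was not used in the choice.

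The study followed RNA in whole seeds of 11 lines, wild-type Col-0 and 10 others, in 123 libraries. All lines are labelled with the Col-0 accession. Of the mutant lines, abi3-6 was sampled at 16, 18, 20 and 22 DAP in batch A, and at 24 DAP and as dry seed in batch B. The lines abi3-12, abi3-12 dog1-4 and abi3-12 dog1-4 cyp707a2 were sampled at 18, 20, 22 and 24 DAP and as dry seed in batch B, and dog1-4 at 20, 22 and 24 DAP and as dry seed. In batch B, aba2-1, dog1-4 aba2-1, abi3-12 aba2-1, abi3-12 dog1-4 aba2-1 and L2-1, a transgenic line carrying the DOG1 allele of the Cvi accession in Col-0, were sampled as dry seed. Wild type was sampled at 12, 14, 16, 18, 20, 22 and 24 DAP and as dry seed in batch A, and from 18 DAP in batch B. The mutant lines are labelled as knock-outs. Each group held 3 libraries, and 6 groups held 2. Seeds of several siliques were pooled, and p-values measure the spread between such libraries. In whole seeds, fewer cells of a type and less RNA per cell cannot be told apart.

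Seed maturation follows embryo patterning. The embryo and endosperm first fill with storage protein and oil, the embryo loses its chlorophyll, and the seed then acquires desiccation tolerance and dormancy and dries. ABI3 is a B3-domain transcription factor that binds the RY element (core CATGCA) and activates maturation genes together with abscisic acid (ABA) signalling. DOG1 is a dormancy protein that binds and restrains PP2C phosphatases of the ABA pathway. ABA2 makes ABA and CYP707A2 breaks it down.

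Library totals ranged from 2577281 to 20277489 counts, with a median of 11678153. Transcripts of the mutated DOG1 averaged 15.3 ± 3.7 CPM in dog1-4 and 373 ± 123 CPM in wild type at 20 DAP of batch B (SD, n = 3 each). Transcripts of CYP707A2 averaged 14.2 ± 1.77 CPM in abi3-12 dog1-4 cyp707a2, 6.36 ± 1.66 CPM in abi3-12 dog1-4 and 117 ± 11.9 CPM in wild type at 22 DAP (SD, n = 3 each), so at that stage the line with cyp707a2 lay above its parent. At 20 DAP they averaged 6.66 ± 2.35, 50.8 ± 7.28 and 64.4 ± 28.0 CPM in these lines in the same order, and at 18 DAP 0.592 ± 0.513, 14.8 ± 9.40 and 9.08 ± 3.25 CPM. ABI3 transcripts were present in abi3-12 (387 ± 27.1 CPM, n = 2) as in wild type (425 ± 14.7 CPM, n = 3) at 18 DAP, so their level does not check that label. ABA2 transcripts were likewise present in aba2-1 (1.74 ± 0.215 CPM) and in wild type (1.92 ± 0.204 CPM) as dry seed (SD, n = 3 each). These CPM, and all levels below unless stated otherwise, were scaled by trimmed mean of M values (TMM), which corrects library totals for a few very abundant transcripts. Seed storage proteins were abundant in the libraries, as the tissue label implies. The summed level of 5 embryo storage transcripts was 499223 to 583021 CPM in wild type at 18 DAP of batch B.

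At 22 DAP some libraries of one group stood apart. The median level over the 200 transcripts was 1.25 CPM in replicate 3 of abi3-12, against 4.70 and 4.88 CPM in its other libraries. It was 1.03, 2.41 and 4.96 CPM in abi3-12 dog1-4 cyp707a2, and 0.741, 1.31 and 2.00 CPM in abi3-12 dog1-4. Wild type at that stage had 4.03, 4.99 and 6.19 CPM. Counts at 22 DAP are therefore also given below without single libraries.

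The set ran from the cineole synthase gene TPS-CIN (AT3G25820), with a log2 ratio of 5.67, to PTF1 (AT3G02150), with 0.7725. Just inside the limit stood LSU2 (0.7757) and ACS2 (0.773), and just outside it NUDX25 (0.7685), MLP328 (0.7668) and HCHIB (0.7632). The limit thus falls on a continuous scale, at a fold of 1.71. With TMM-scaled levels 186 of the 200 were chosen again, with 5 CPM added in place of 1, 151, and with any single library left out, 187 to 195. Protein-coding genes made up 190 of the set, 8 were pseudogenes and 2 were non-coding RNAs.

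The set is a mixed one in which metabolic enzymes and carriers are frequent. By RefSeq product names, 8 of the 200 (4.0%) encoded cytochrome P450 enzymes, against 0.741% of the genes tested in batch B. Transporters made up 9.0% of the set and 3.46% of the genes tested, lipid-related proteins 8.0% and 2.05%, and peroxidases and other oxidoreductases 10.0% and 4.23%. Transcription factors had similar shares, 5.0% of the set and 5.48% of the genes tested. Kinases made up 3.0% and 5.14%, and no member encoded a heat shock protein, against 0.593% of the genes tested. By product name 1 member carries the words late embryogenesis abundant (LEA), 0.5% of the set against 0.296% of the genes tested. It is AT1G17620, named for a LEA hydroxyproline-rich glycoprotein family. Of a fixed list of 29 LEA genes, 0 are members.

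By known function, 89 members fell into 12 role groups. The 17 transporters include the amino acid carriers AAP3, AAP7, UMAMIT8, UMAMIT22 and UMAMIT26, the nitrate transporter NRT1.1, the metal carrier NRAMP6, the sugar carrier SWEET2 and GPT2, which imports glucose 6-phosphate into plastids. A group of 5 belongs to the response to sulfur limitation. It holds SDI1 (AT5G48850), a repressor of glucosinolate synthesis, the small proteins LSU2 and LSU3, whose transcripts accumulate when sulfur is short, BGLU28, a glucosidase that breaks down glucosinolates, and AT5G26220, a ChaC-like protein of glutathione breakdown. A group of 5 cleaves phosphate compounds: the pyrophosphatase PS2, the purple acid phosphatases PAP20 and PAP22, the phospholipase NPC5 and the phosphodiesterase GDPD3. The nucleases BFN1, RNS1 and RNS3 and the metacaspase MC9, which are known from dying cells, are members. So are DOG1 itself, the chlorophyll breakdown enzyme PAO (AT3G44880, also named ACD1), the seed oleosin OLEO4, which coats oil bodies, and the caleosin CLO4. The 15 transcriptional regulators include NAC019, NAP, MYB90, the auxin-response repressors IAA7 and IAA34 and the jasmonate repressor JAZ6.

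The members were spread over the genome, with 59, 35, 39, 27 and 40 on chromosomes 1 to 5. In 5 places 2 members were direct neighbours, and in 3 of these the neighbours carried the same product name: AT1G14940 and AT1G14950, CLO4 and AT1G70680, and ChiC and AT4G19820. The cineole synthase genes AT3G25820 (chromosome 3, 9439146 to 9442774) and AT3G25830 (9447409 to 9451037) have coding sequences of 1803 bases that are 100.0% identical, so reads cannot be told apart and their separate values are uncertain. Another terpene synthase member, AT3G25810, is 85.69% identical to AT3G25820.

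The RY core was found in more promoters of the set than of genes in general. Within the 250 bases before the annotated start, CATGCA on either strand stood in 39 of the 200 promoters (19.5%), against 8.84% of the 37897 gene promoters of the RefSeq TAIR10.1 annotation and 7.71% of those of genes tested in batch B. The G-box CACGTG, a site of bZIP and bHLH factors, stood in 10.5%, 5.39% and 7.64%, and ACGTGT, which can overlap it as CACGTGT, in 17.0%, 9.33% and 11.7%. The TATA motif TATAAA stood in 55.5%, 44.6% and 45.6%. These are matches of letters and not mapped binding sites. Many members that the results below turn on lack the RY core in this window, among them SDI1, DOG1, PAO, ACS2, BGLU3, RNS1 and AT4G01610. To show where the core lies, a 60-base stretch is printed for 6 members picked from those that have it. CATGCA, or its reverse complement TGCATG, is in capitals, and each stretch reads 5′ to 3′ on the gene's strand. They are the oil-body protein OLEO4 at chr3:10243069-10243128 (+), the P450 genes CYP702A6 at chr4:8807415-8807474 (+) and CYP77A6 at chr3:3301823-3301882 (+), the metal carrier NRAMP6 at chr1:5486179-5486238 (−), LSU3 at chr3:18373150-18373209 (−) and GPT2 at chr1:22824214-22824273 (+).
OLEO4: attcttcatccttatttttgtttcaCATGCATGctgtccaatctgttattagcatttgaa
CYP702A6: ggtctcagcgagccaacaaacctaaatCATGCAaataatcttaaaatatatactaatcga
CYP77A6: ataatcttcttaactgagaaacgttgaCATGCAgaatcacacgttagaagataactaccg
NRAMP6: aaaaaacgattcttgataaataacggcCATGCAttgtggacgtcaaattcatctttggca
LSU3: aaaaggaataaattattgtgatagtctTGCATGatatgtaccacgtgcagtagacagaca
GPT2: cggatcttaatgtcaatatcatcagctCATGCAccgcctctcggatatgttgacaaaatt
In OLEO4 both orientations overlap as CATGCATG. The match ended 29 bases before the start in LSU3, 31 in CYP77A6, 35 in CYP702A6, 100 in NRAMP6, 142 in OLEO4 and 167 in GPT2.

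In wild type of batch A, the course that chose the set was steep on both sides. The median level over the 200 transcripts, averaged over the libraries of a group here and below, was 2.27 CPM at 12 DAP, 9.50 at 14, 21.7 at 16, 19.9 at 18, 2.50 at 20, 0.672 at 22, 0.680 at 24 and 0.590 CPM in dry seed. The members together took 1.41% ± 0.095 of all counts at 12 DAP, 4.60% ± 0.276 at 18 DAP and 1.60% ± 0.25 as dry seed (SD, n = 3 each). By totals-scaled means, as in the rule, 103 members were highest at 16 DAP and 93 at 18 DAP. AT4G35150 and SADHU2-1 were highest at 14 DAP, and AT2G31751 and GASA3 at 20 DAP. Scaled by TMM, 81 were highest at 16 and 117 at 18 DAP, so the order of these stages depends on the scaling. At least 197 of the 200 reached 1 CPM in each library of 16 and 18 DAP, and 87 to 90 did in dry seed.

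**Figure D1:**
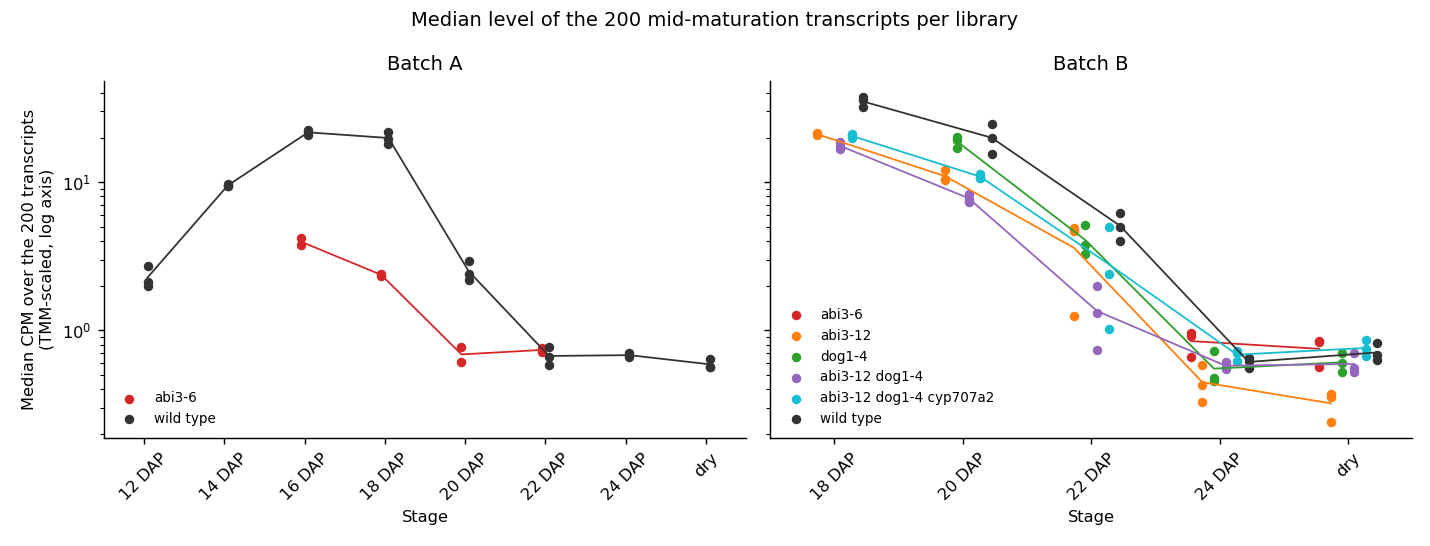
Median TMM-scaled level over the 200 transcripts (CPM, log axis) in each library, by stage, with batch A left and batch B right; lines join group means of each seed line. The wild-type rise to 16 and 18 DAP in batch A chose the set. There the abi3 line is set against the libraries that made the choice, so nothing is read from its lower level. In batch B, the fall after 18 DAP and the lower levels of the abi3 lines at 18 DAP did not enter the choice.

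Single members describe the course in the libraries that chose the set. TPS-CIN (AT3G25820) was at 0 in all libraries of 12 DAP, had 79.7, 61.1 and 74.3 CPM at 16 DAP and 78.9, 85.2 and 66.2 CPM at 18 DAP, and was again at 0 in all libraries of 20 DAP. The amino acid permease AAP3 (AT1G77380) had 1.22 to 2.43 CPM at 12 DAP, then 30.2 to 47.4 (16 DAP), 30.9 to 51.5 (18 DAP) and at most 0.57 CPM (20 DAP). UMAMIT26 (AT1G11460), of a family of amino acid exporters, had at most 0.195 CPM at 12 DAP, then 18.7 to 22.9 (16 DAP), 41.6 to 47.6 (18 DAP) and 0.767 to 0.911 CPM (20 DAP). For these 3 genes every library of 16 and 18 DAP lay above every library of 12 and 20 DAP. The rule chose them for standing high at 16 and 18 DAP in these libraries, so nothing is read from either separation. RNS1 (AT2G02990), a secreted ribonuclease, had 57.7 to 87.4 CPM at 12 DAP, then 284 to 442 (16 DAP), 209 to 381 (18 DAP) and 2.96 to 11.3 CPM (20 DAP). Other members kept a high level throughout. OLEO4 (AT3G27660) had 11474 to 12691 CPM at 18 DAP and 7354 to 7540 CPM at 20 DAP. The glycine-rich protein AT2G05580 had 5311 to 5924 CPM at 12 DAP, 23506 to 34627 at 18 DAP and 4719 to 8913 CPM in dry seed.

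The fall after 18 DAP was repeated in the independent batch B, but later. The wild-type median level there was 35.0 CPM at 18 DAP, 19.9 at 20, 5.07 at 22, 0.612 at 24 and 0.709 CPM in dry seed, so at 20 DAP it lay nearer to that of 18 DAP than in batch A. From 20 against 18 DAP, 95 of the 200 fell and 14 rose, with a median log2 fold change of -0.69 (edgeR's quasi-likelihood test, Benjamini-Hochberg adjusted p under 0.05 over all genes, as in all counts of this section). Of all genes tested, 25.9% fell and 23.4% rose. From 22 against 20 DAP, 186 of the 200 fell, 0 rose, and the median was -2.06, while 43.9% of all genes were called, 22.7% lower and 21.2% higher. In dry seed against 18 DAP, 196 fell and 0 rose with a median of -4.91, against 34.8% and 31.8% of all genes. The other 4 were AT2G38390, which was at 0 in both groups, UMAMIT22, AT1G14950 and TRFL2. By totals-scaled means 163 members were highest at 18 DAP in batch B and 34 at 20 DAP. MAPKKK14, MAPKKK17 and AT4G26288 were highest at 22 DAP.

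Members differed in how far they fell. AT1G14950 had 1920, 1638 and 1702 CPM in dry seed, against 1532, 1907 and 1457 CPM at 18 DAP of batch B, and reached 3754, 3519 and 4366 CPM at 20 DAP. The dry-seed and 18 DAP libraries overlapped. DOG1 (AT5G45830) had 40.6, 34.1 and 24.4 CPM in dry seed, against 434, 436 and 481 CPM at 18 DAP (log2 fold change ± SE, -3.77 ± 0.25, n = 3 each, adjusted p = 9.57e-22, edgeR). PAO (AT3G44880) had 22.7, 16.2 and 18.3 CPM in dry seed, against 253, 352 and 317 CPM at 18 DAP (-4.01 ± 0.21, adjusted p = 3.46e-26, edgeR). OLEO4 (AT3G27660) had 4702, 3787 and 4061 CPM in dry seed, against 13100, 14787 and 14148 CPM at 18 DAP (-1.74 ± 0.34, adjusted p = 5.22e-06, edgeR). All dry-seed libraries lay below all those of 18 DAP for these 3 genes.

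By role, the wild-type fall of 22 against 20 DAP in batch B took in all 15 transcriptional regulators, all 9 P450 genes and all 7 defence proteins. All 5 sulfur-limitation genes and all 4 terpenoid genes fell too. The fall was not complete among transporters (16 of 17), nuclease or protease genes (6 of 7), hormone genes (5 of 6) and genes for cleaving phosphate compounds (4 of 5). Of the whole set 186 of 200 fell, against 22.7% of all genes, so these counts set no role group apart. Of the seed coat markers, suberin genes fell at the same time. The summed level of 6 seed coat suberin genes was 12.8 to 29.7 CPM at 22 DAP and 124 to 259 CPM at 20 DAP, and 6 of 6 fell, with a median log2 fold change of -3.05. The summed level of 7 seed coat flavonoid genes was 55.3 to 88.0 CPM at 22 DAP and 512 to 562 CPM at 20 DAP, with 2 of the 6 tested falling. The summed level of 10 seed coat mucilage genes was 312 to 357 CPM at 22 DAP and 343 to 396 CPM at 20 DAP, with 7 of the 10 falling at a median of -0.89. Embryo storage transcripts (5 genes) summed to 73401 to 120006 CPM at 22 DAP and 344233 to 464257 CPM at 20 DAP. At 22 DAP, 1 of the 7 flavonoid and 1 of the 6 suberin genes lay at or under 3 counts in every library. The part of these tissues in the fall was not tested.

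In abi3-6 the median level of the set lay below that of the wild-type libraries that chose it. It was 3.97 CPM in abi3-6 and 21.7 in wild type at 16 DAP, and 2.37 CPM in abi3-6 and 19.9 in wild type at 18 DAP. The members took 1.23% ± 0.034 of the counts in abi3-6 (n = 2) and 4.60% ± 0.276 in wild type (n = 3) at 18 DAP. Without the 5 members with the most counts, the shares were 0.847% ± 0.002 in abi3-6 and 1.11% ± 0.044 in wild type. Since these wild-type libraries chose the set for being high, no test is given and nothing is read from the counts that follow. At 18 DAP 174 of 200 members had both abi3-6 libraries below all wild-type ones and 18 had them above, where 38.1% and 42.3% of all genes tested did so. At 16 DAP the numbers were 168 and 17, and of all genes 37.9% and 38.7%. OLEO4 (AT3G27660) had 75.4 and 105 CPM in abi3-6, against 12691, 12246 and 11474 CPM in wild type at 18 DAP. DOG1 (AT5G45830) had 46.2 and 36.8 CPM in abi3-6, against 467, 566 and 511 CPM in wild type. GPT2 (AT1G61800) went the other way, with 668 and 674 CPM in abi3-6, against 101, 62.1 and 187 CPM in wild type. For these 3 genes the groups did not overlap. TPS-CIN (AT3G25820) and UMAMIT26 (AT1G11460) were at or under 3 counts in every abi3-6 library of 16 and 18 DAP. Tissue markers differed too. At 18 DAP endosperm genes (6) summed to 7374 to 8996 CPM in abi3-6 and 32810 to 50732 CPM in wild type, and embryo storage genes to 53626 to 57650 CPM in abi3-6 and 411196 to 438024 CPM in wild type. Suberin genes summed to 133 to 152 CPM in abi3-6 and 160 to 226 CPM in wild type, mucilage genes (10) to 525 to 591 CPM in abi3-6 and 288 to 292 CPM in wild type, and flavonoid genes to 406 to 506 CPM in abi3-6 and 314 to 429 CPM in wild type. In abi3-6 3 of the 6 endosperm, 1 of the 7 flavonoid and 1 of the 10 mucilage genes lay at or under 3 counts in each library. In wild type 2, 1 and 1 did, in the same order. The part of these markers in the result was not tested.

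The later stages of abi3-6 did not enter the choice and were tested. At 20 DAP 101 members were lower and 32 higher than in wild type, with a median log2 fold change of -1.57, while of all genes 35.0% were lower and 44.1% higher, with a median of 0.18. At 22 DAP 50 members were lower and 65 higher with a median of 0.00 (all genes, 33.8% and 43.6%). In dry seed 49 were lower and 63 higher with a median of 0.13 (all genes, 34.5% and 43.2%). Scaled by library totals, 72 were lower and 51 higher at 20 DAP, 42 and 83 at 22 DAP, while dry seed had 42 and 81. The median of all genes itself shifted by 1.10 at 20 DAP under that scaling, and the members' median relative to it was -1.76 by totals and -1.75 by TMM. Endosperm genes summed to 296 to 382 CPM in abi3-6 and 27991 to 34026 CPM in wild type at 20 DAP, and embryo storage genes to 4744 to 5485 CPM in abi3-6 and 93945 to 131941 CPM in wild type. Of the 6 endosperm genes 3 lay at or under 3 counts in abi3-6 and 3 in wild type, and the part of these markers was not tested.

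At 20 DAP 7 of the 9 P450 genes and 4 of the 5 lipid droplet or surface lipid genes were lower in abi3-6, and in dry seed 3 and 2 were. Of all genes 35.0% were lower at 20 DAP and 34.5% in dry seed, so the dry-seed counts lie near the share of all genes. At 20 DAP OLEO4 (AT3G27660) had 3.85 and 5.17 CPM in abi3-6, against 7354, 7361 and 7540 CPM in wild type (log2 fold change -10.67 ± 0.24, adjusted p = 9.93e-22, edgeR). DOG1 (AT5G45830) had 3.24 and 1.86 CPM in abi3-6, against 107, 124 and 67.9 CPM in wild type (-5.31 ± 0.34, adjusted p = 2.83e-13, edgeR). In dry seed OLEO4 still had 1.78, 3.49 and 3.16 CPM in abi3-6, against 4702, 3787 and 4061 CPM in wild type (-10.53 ± 0.51, adjusted p = 3.8e-29, edgeR). No library of the groups overlapped. CYP702A6 (AT4G15396), a P450 of the CYP702A family, was at 0 in all abi3-6 dry seed, against 195, 186 and 197 CPM in wild type, at least 878-fold lower at a floor of 3 counts per library. BGLU3 (AT4G22100), a predicted beta-glucosidase, was also at 0 there, against 48.6, 43.4 and 48.7 CPM, at least 214-fold lower.

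Other members kept a high level in abi3-6 when wild type had lost it. GPT2 (AT1G61800) had 267 and 204 CPM in abi3-6, against 1.71, 1.20 and 1.10 CPM in wild type at 20 DAP, and 539, 334 and 516 CPM in abi3-6, against 5.12, 7.79 and 5.02 CPM in wild type as dry seed. The log2 fold changes were 7.45 ± 0.63 (adjusted p = 5.49e-11, edgeR) and 6.27 ± 0.39 (adjusted p = 2.49e-23, edgeR). PS2 (AT1G73010), a pyrophosphatase induced by phosphate starvation, had 44.2, 45.3 and 42.1 CPM in abi3-6 dry seed, against 2.65, 1.10 and 2.15 CPM in wild type (4.48 ± 0.41, adjusted p = 1.41e-15, edgeR). Neither gene overlapped between groups. IAA7 (AT3G23050), a repressor of auxin response, had 12.5, 21.7 and 20.0 CPM in abi3-6 dry seed and was at 0 in wild type, at least 67.9-fold higher. MYB90 (AT1G66390), an activator of anthocyanin synthesis, had 11.6, 12.5 and 10.5 CPM, against 0.183, 0 and 0.179 CPM, at least 43.4-fold higher. In dry seed 8 of the 15 transcriptional regulators were higher and 1 was lower in abi3-6, where 43.2% of all genes were higher.

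In abi3-12, sampled in batch B, more members were called lower than higher against wild type at each stage tested. At 18 DAP, the first stage sampled, the median level was 21.1 CPM in abi3-12 and 35.0 CPM in wild type, 80 members were lower and 8 higher, and the median log2 fold change was -0.62. Of all genes 13.9% were lower and 15.2% higher. At 20 DAP 85 were lower and 16 higher (median -0.70), against 19.4% and 18.3% of all genes. At 22 DAP 47 were lower and 20 higher (median -0.23; all genes, 17.5% and 17.2%), and in dry seed 35 were lower and 19 higher (median -0.02; all genes, 30.4% called, 14.2% lower and 16.2% higher). Without replicate 3 of abi3-12, 32 were lower and 25 higher at 22 DAP, and without replicate 1 of abi3-12 the call at 18 DAP fell to 56 members in all. Scaled by library totals 47 were lower and 23 higher at 18 DAP, 52 and 25 at 20 DAP and 33 and 30 at 22 DAP. The dry-seed numbers by totals were 31 and 27. The members' median relative to all genes at 18 DAP was -0.65 by totals and -0.64 by TMM.

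The sulfur-limitation genes were all low in abi3-12. All 5 were called lower at 18 and at 20 DAP, with median log2 fold changes of -5.37 and -6.68. SDI1 (AT5G48850) had 0.572 and 0 CPM in abi3-12, against 273, 356 and 390 CPM in wild type at 18 DAP (-9.82 ± 0.85, adjusted p = 7.75e-15, edgeR). At 20 DAP it had 14.5, 21.3 and 4.64 CPM in abi3-12, against 315, 207 and 158 CPM in wild type (-3.95 ± 0.47, adjusted p = 1.63e-10, edgeR). The groups were far apart at both stages. LSU3 (AT3G49570) had 2.36 and 1.05 CPM in abi3-12, against 61.7, 71.8 and 95.6 CPM in wild type at 18 DAP (-5.37 ± 0.41, adjusted p = 5.09e-17, edgeR). LSU2 (AT5G24660) had 12.5 and 3.79 CPM in abi3-12, against 28.5, 29.1 and 35.8 CPM in wild type (-1.86 ± 0.34, adjusted p = 1.72e-05, edgeR). BGLU28 (AT2G44460) was at 0 in both abi3-12 libraries, against 57.0, 65.9 and 77.7 CPM, at least 220-fold lower at a floor of 3 counts per library. None of the 5 was called in dog1-4 at 20 DAP, where 12.5% of all genes were called and SDI1 averaged 301 CPM, against 226 CPM in wild type. A count of 0 among 5 genes lies near that share, so no lack of response is read from it. In dog1-4 dry seed 2 of the 5 were lower (median log2 fold change -0.75), where 13.7% of all genes were lower.

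**Figure D2:**
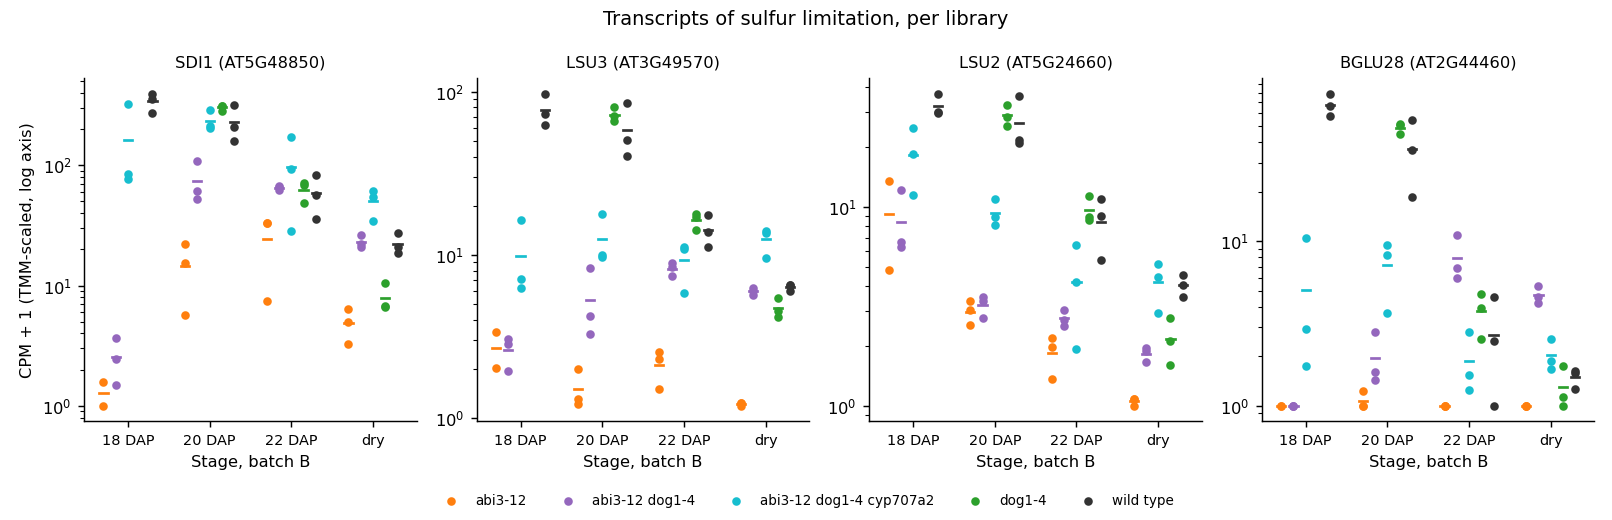
TMM-scaled levels (CPM + 1, log axis) of 4 sulfur-limitation transcripts in each batch B library by stage and line, with group means as bars. SDI1 was lowest in abi3-12 and abi3-12 dog1-4 at 18 DAP, and reached 64.3 CPM on average in abi3-12 dog1-4 and 57.3 CPM in wild type at 22 DAP.

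The cineole synthase transcripts were not detected in the lines with abi3-12 at 18 DAP. AT3G25820 (TPS-CIN) was at 0 in both abi3-12 libraries and in all 3 of abi3-12 dog1-4, against 137, 142 and 153 CPM in wild type at 18 DAP, at least 475-fold and at least 571-fold lower. In dog1-4 at 20 DAP it had 136, 129 and 105 CPM, against 69.5, 33.6 and 5.57 CPM in wild type, and the difference missed the threshold (log2 fold change 1.78 ± 0.54, adjusted p = 0.0572, edgeR). The wild-type libraries of 20 DAP were widely spread. AT3G25820 lies 441.8 kb and AT3G25810 433.4 kb from ABI3 on chromosome 3. In all, 10 members lie within 1000 kb of ABI3. Of these, 6 were lower in abi3-12 at 18 DAP with a median log2 fold change of -1.21, against 38.9% and -0.62 among the other 190. A difference in the genome near the mutated gene was not tested.

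Several further members of the lipid, P450 and hormone groups were low in abi3-12 at 18 DAP. CYP77A6 (AT3G10570), a P450 of cutin synthesis in flowers, had 0.786 and 0.654 CPM in abi3-12, against 59.996, 61.7 and 59.2 CPM in wild type (-6.34 ± 0.33, adjusted p = 3.77e-24, edgeR). ACS2 (AT1G01480), an enzyme of ethylene synthesis, had 1.29 and 0 CPM, against 103, 108 and 107 CPM (-7.01 ± 0.47, adjusted p = 2.04e-19, edgeR). CYP702A6 (AT4G15396) had 15.6 and 17.0 CPM, against 491, 530 and 535 CPM (-4.997 ± 0.38, adjusted p = 5.91e-17, edgeR). GPAT1 (AT1G06520), an acyltransferase of glycerolipid synthesis, had 5.93 and 7.72 CPM, against 44.7, 47.4 and 54.1 CPM (-2.87 ± 0.26, adjusted p = 4.78e-14, edgeR). NRAMP6 (AT1G15960) had 176 and 165 CPM, against 385, 560 and 476 CPM (-1.48 ± 0.34, adjusted p = 0.00044, edgeR). In each gene both abi3-12 libraries lay below all wild-type ones. Of the few that were higher, AT5G01210, of an acyltransferase family, had 100 and 129 CPM, against 25.1, 29.5 and 26.6 CPM (2.06 ± 0.26, adjusted p = 1.92e-09, edgeR). The NAC factor NAC019 (AT1G52890) had 146 and 128 CPM, against 75.3, 87.5 and 101 CPM (0.64 ± 0.22, adjusted p = 0.0207, edgeR), a call lost when single libraries were left out.

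OLEO4 (AT3G27660) was lower than in wild type at every stage tested in abi3-12. It had 4305 and 3981 CPM in abi3-12 at 18 DAP, against 13100, 14787 and 14148 CPM in wild type (-1.76 ± 0.39, adjusted p = 0.000271, edgeR). At 20 DAP it had 2143, 1720 and 2295 CPM in abi3-12, against 15660, 11728 and 13797 CPM (-2.74 ± 0.35, adjusted p = 1.21e-09, edgeR), and at 22 DAP 195, 457 and 186 CPM, against 5361, 7092 and 4886 CPM (-4.37 ± 0.37, adjusted p = 1.79e-15, edgeR). No abi3-12 library reached a wild-type one. Among 12 lipid droplet proteins, a list that holds OLEO4, 11 were lower at 18 DAP and 12 at 20 DAP in abi3-12, with median log2 fold changes of -1.25 and -2.17. At 18 DAP, seed coat suberin genes summed to 437 to 521 CPM in abi3-12 and 449 to 530 CPM in wild type, and embryo storage transcripts to 285658 to 335541 CPM in abi3-12 and 499223 to 583021 CPM in wild type. Endosperm genes summed to 3432 to 6099 CPM in abi3-12 and 9200 to 13874 CPM in wild type, with 1 of the 4 tested called lower. Of the 6 endosperm genes 2 lay at or under 3 counts in abi3-12 and 2 in wild type. The part of these markers in the result was not tested.

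Loss of DOG1 alone left the set near its wild-type level at 20 DAP. The median level was 18.8 CPM in dog1-4 and 19.9 CPM in wild type, 16 members were lower and 16 higher, and of all genes 5.27% were lower and 7.24% higher. Scaled by library totals, 11 were lower and 29 higher. The largest falls were DOG1 itself and ELIP1 (AT3G22840), a light-stress chlorophyll-binding protein. DOG1 (AT5G45830) had 18.4, 16.2 and 11.2 CPM in dog1-4, against 501, 363 and 256 CPM in wild type (-4.62 ± 0.27, adjusted p = 2.62e-22, edgeR). ELIP1 had 16.7, 8.79 and 8.08 CPM, against 85.2, 45.8 and 51.0 CPM (-2.45 ± 0.33, adjusted p = 5.02e-08, edgeR). NRAMP6 (AT1G15960) had 83.1, 86.5 and 61.2 CPM, against 390, 290 and 209 CPM (-1.95 ± 0.30, adjusted p = 1.13e-06, edgeR). The largest rises were a MADS-box gene, AT1G17310, with 22.1, 20.7 and 16.7 CPM, against 3.82, 1.94 and 8.42 CPM (2.05 ± 0.45, adjusted p = 0.000575, edgeR), and AT5G01210 with 63.3, 71.2 and 66.2 CPM, against 24.8, 17.6 and 14.0 CPM (1.84 ± 0.24, adjusted p = 1.28e-08, edgeR). In none of these did the groups overlap, which for the largest rises and falls was a condition of being named.

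At 22 DAP 27 members were lower and 9 higher in dog1-4, with a median log2 fold change of -0.40, against 8.33% and 9.49% of all genes. Scaled by totals, 20 were lower and 25 higher, and without wild-type replicate 2, 13 were lower and 10 higher. GPT2 (AT1G61800) had 43.3, 40.1 and 37.0 CPM in dog1-4, against 3.21, 4.68 and 4.39 CPM in wild type (3.35 ± 0.42, adjusted p = 3.38e-09, edgeR). NAP (AT1G69490), a NAC factor of leaf senescence, had 18.5, 20.0 and 17.9 CPM, against 3.64, 1.24 and 5.12 CPM (2.64 ± 0.32, adjusted p = 1.12e-09, edgeR). ELIP1 (AT3G22840) had 1.95, 1.23 and 1.65 CPM, against 8.32, 25.7 and 19.4 CPM (-3.39 ± 0.46, adjusted p = 2.29e-08, edgeR). AT5G01210 had 34.1, 40.4 and 32.3 CPM, against 5.38, 3.30 and 4.03 CPM (3.01 ± 0.30, adjusted p = 1.82e-12, edgeR). The groups were apart in all 4 genes. In dry seed 28 members were lower and 19 higher (all genes, 13.7% and 16.9%), and by totals 22 and 26.

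With both mutations, abi3-12 dog1-4 had the lowest levels of the batch B lines from 18 to 22 DAP. The median was 17.6 CPM at 18 DAP, 7.80 at 20 and 1.35 at 22 DAP, against 35.0, 19.9 and 5.07 CPM in wild type. At 18 DAP 101 members were lower and 11 higher (median log2 fold change -0.81), against 19.5% and 21.8% of all genes. At 20 DAP 129 were lower and 16 higher (-1.17), against 29.7% and 29.1%, and at 22 DAP 118 were lower and 26 higher (-1.63), against 75.2% of all genes called, 35.7% lower and 39.5% higher. In dry seed 49 were lower and 47 higher (0.00), against 33.1% and 40.7%. Scaled by totals the counts were 68 lower and 54 higher at 18 DAP, 71 and 41 at 20, 91 and 41 at 22 DAP, and 43 and 66 in dry seed. The members' median relative to all genes at 22 DAP was -1.67 by totals and -1.69 by TMM. At 22 DAP the members took 0.629% ± 0.1 of the counts in abi3-12 dog1-4 and 2.101% ± 0.22 in wild type (SD, n = 3 each). Without the 5 members with the most counts the shares were 0.448% ± 0.019 in abi3-12 dog1-4 and 0.383% ± 0.069 in wild type, the other way round.

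**Figure D3:**
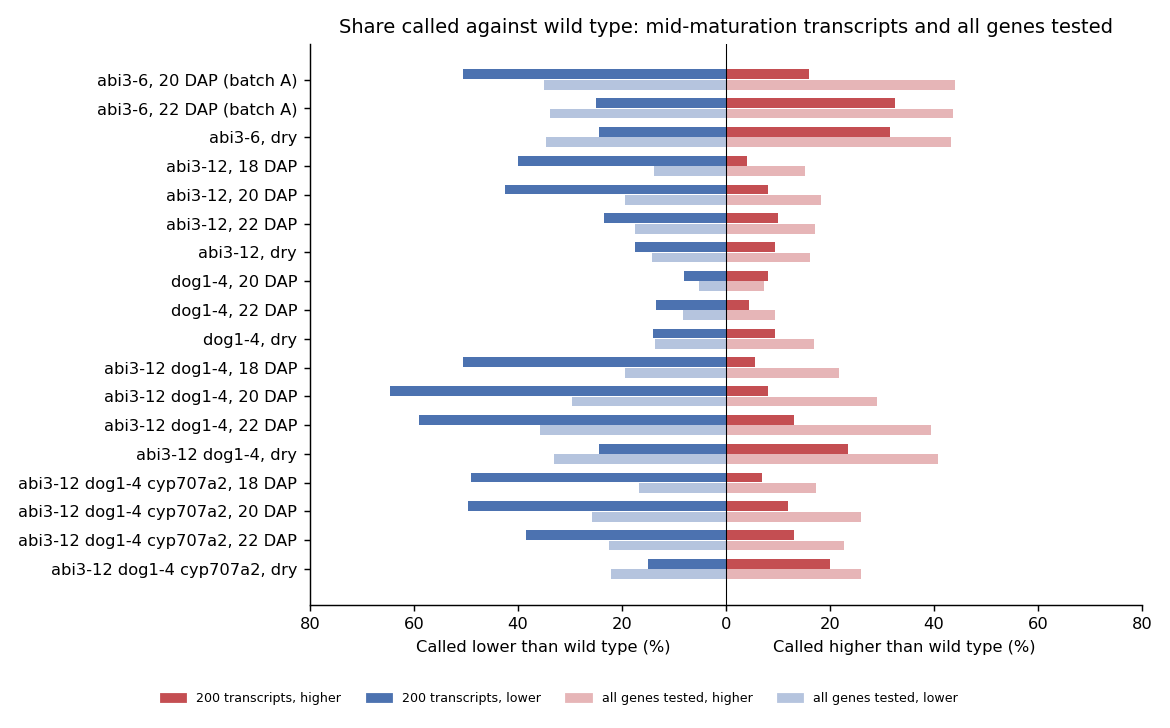
Share of the 200 transcripts called lower (left) or higher (right) than wild type (percent, edgeR's quasi-likelihood test, adjusted p under 0.05) in each line and stage, above the share of all genes tested in light colour. Of the lines drawn, abi3-12, abi3-12 dog1-4 and abi3-12 dog1-4 cyp707a2 had 80 to 129 members lower at 18 and 20 DAP, and 30 to 49 in dry seed.

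The wild-type libraries are shared by all these comparisons at a stage, so each line's values are given side by side and no overlap between lines is drawn. SDI1 (AT5G48850) had 2.69, 0.481 and 1.43 CPM in abi3-12 dog1-4, against 273, 356 and 390 CPM in wild type at 18 DAP (-7.73 ± 0.58, adjusted p = 4.89e-18, edgeR), and 51.9, 107 and 60.2 CPM, against 315, 207 and 158 CPM at 20 DAP (-1.63 ± 0.40, adjusted p = 0.000328, edgeR). The 20 DAP call is lost when library totals scale the counts. OLEO4 (AT3G27660) had 1275, 1857 and 1798 CPM in the double mutant, against 13100, 14787 and 14148 CPM at 18 DAP (-3.09 ± 0.35, adjusted p = 3.47e-11, edgeR). At 20 DAP it had 608, 256 and 471 CPM, against 15660, 11728 and 13797 CPM (-4.95 ± 0.38, adjusted p = 3.64e-18, edgeR). At 22 DAP it had 9.40, 4.26 and 19.3 CPM, against 5361, 7092 and 4886 CPM (-9.05 ± 0.47, adjusted p = 3.06e-27, edgeR). The estimated gap to wild type was thus larger at 20 than at 18 DAP and larger again at 22 DAP, and in dry seed it was -8.35 ± 0.45 (adjusted p = 4.35e-26, edgeR). All 12 lipid droplet proteins were lower at 18 and at 22 DAP, with median log2 fold changes of -2.22 and -6.51.

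PAO (AT3G44880), which opens the chlorophyll ring, had 83.2, 85.7 and 81.4 CPM in abi3-12 dog1-4, against 253, 352 and 317 CPM in wild type at 18 DAP (-1.89 ± 0.19, adjusted p = 5.76e-13, edgeR). At 22 DAP it had 15.5, 11.3 and 16.5 CPM, against 33.2, 66.6 and 27.8 CPM (-1.59 ± 0.21, adjusted p = 2.94e-10, edgeR). Of 10 chlorophyll breakdown genes 7 were lower and 1 higher at 18 DAP. CYP702A6 (AT4G15396) had 68.8, 42.9 and 46.8 CPM in the double mutant, against 491, 530 and 535 CPM at 18 DAP (-3.29 ± 0.29, adjusted p = 3.89e-15, edgeR), and 8 of the 9 P450 genes were lower. PAO and CYP702A6 did not overlap between groups.

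The nucleases and the metacaspase were called lower at 22 DAP and not at 18 DAP. None of the 7 nuclease or protease genes was lower in abi3-12 dog1-4 at 18 DAP, whereas 5 were at 22 DAP. Of all genes 19.5% were lower at 18 DAP and 35.7% at 22 DAP. Most of the whole set was also lower at 22 DAP, so that count does not set this small group apart. BFN1 (AT1G11190) had 10.9, 2.90 and 27.4 CPM in the double mutant, against 70.0, 90.4 and 43.2 CPM in wild type at 22 DAP (-2.35 ± 0.47, adjusted p = 9.31e-06, edgeR). RNS1 (AT2G02990) had 6.09, 1.67 and 9.65 CPM, against 37.5, 55.2 and 23.8 CPM (-2.79 ± 0.50, adjusted p = 1.27e-06, edgeR), and MC9 (AT5G04200) had 4.61, 1.42 and 8.06 CPM, against 14.0, 16.2 and 13.9 CPM (-1.67 ± 0.34, adjusted p = 1.15e-05, edgeR). These 3 did not overlap, and the spread in the double mutant was wide. RNS3 (AT1G26820) had 2.05, 0.617 and 5.79 CPM, against 8.24, 11.8 and 5.86 CPM (-1.73 ± 0.50, adjusted p = 0.00171, edgeR), a call lost with library totals, with DESeq2 and in a fit of these groups alone. The serine carboxypeptidase gene scpl31 (AT1G11080) was at 0 in the double mutant, against 6.24, 8.25 and 3.66 CPM, at least 32.3-fold lower.

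A few members were far higher in abi3-12 dog1-4. AT4G01610, a cysteine proteinase, had 1580, 1781 and 1182 CPM in the double mutant, against 85.9, 99.7 and 78.0 CPM in wild type at 22 DAP (4.10 ± 0.19, adjusted p = 1.99e-29, edgeR). In dry seed it had 2030, 2119 and 1979 CPM, against 71.2, 90.9 and 77.8 CPM (4.67 ± 0.20, adjusted p = 1.09e-31, edgeR). In abi3-12 it had 397, 384 and 259 CPM at 22 DAP, against the same wild-type values (1.97 ± 0.18, adjusted p = 9.81e-15, edgeR). GPT2 (AT1G61800) had 204, 185 and 220 CPM in the double mutant, against 64.9, 14.6 and 7.55 CPM at 20 DAP (2.82 ± 0.33, adjusted p = 2.17e-11, edgeR), and 160, 109 and 154 CPM, against 3.21, 4.68 and 4.39 CPM at 22 DAP (5.17 ± 0.42, adjusted p = 5.98e-18, edgeR). In dry seed ABCG37 (AT3G53480), an exporter of auxin precursors and coumarins, had 25.1, 26.0 and 26.3 CPM, against 0.457, 1.95 and 0.628 CPM (4.63 ± 0.50, adjusted p = 8.75e-13, edgeR). ACS2 (AT1G01480) had 0.105, 0.275 and 0.132 CPM, against 49.1, 41.4 and 44.3 CPM (-7.98 ± 0.45, adjusted p = 1.21e-24, edgeR). None of these groups overlapped, which for the largest rises and falls was a condition of being named.

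**Figure D4:**
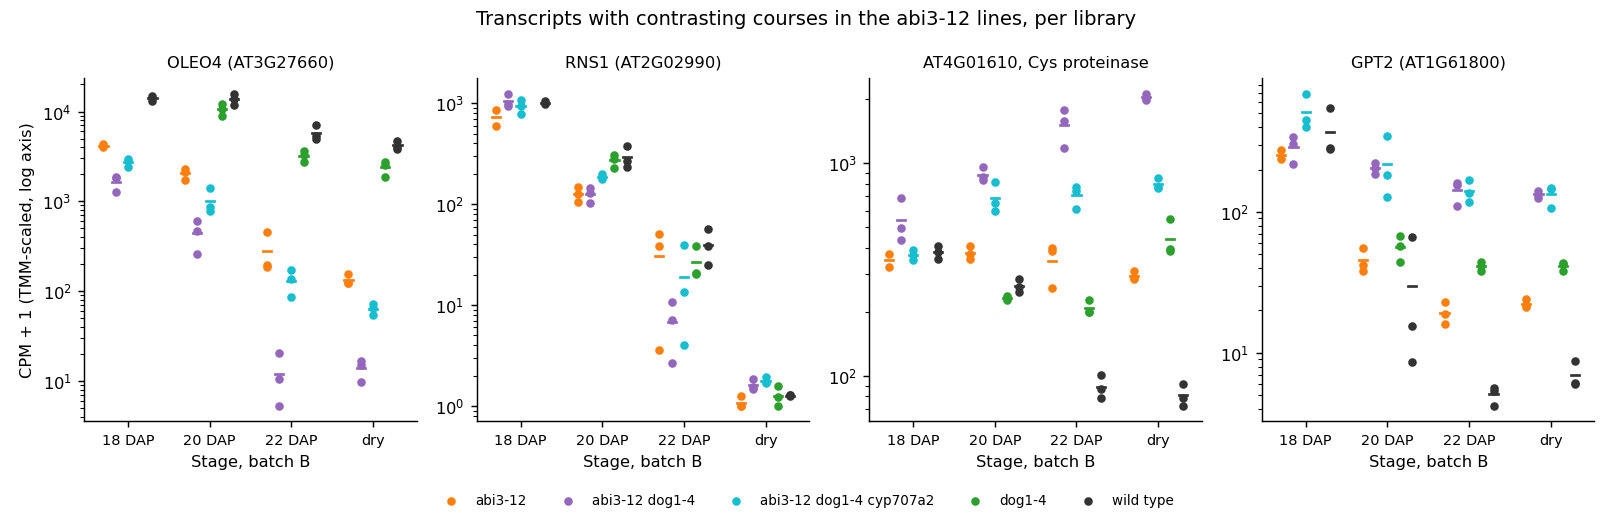
TMM-scaled levels (CPM + 1, log axis) of OLEO4, RNS1, AT4G01610 and GPT2 in each batch B library by stage and line, with group means as bars. OLEO4 fell to 4.26 to 19.3 CPM in abi3-12 dog1-4 at 22 DAP, while AT4G01610 reached 1182 to 1781 CPM and GPT2 109 to 160 CPM there.

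The AT2G05580 transcript had 811, 328 and 1238 CPM in abi3-12 dog1-4, against 10504, 12672 and 9745 CPM in wild type at 22 DAP (-3.79 ± 0.32, adjusted p = 2.57e-17, edgeR). Over members with the RY core, the median log2 fold change in abi3-12 dog1-4 at 18 DAP was -1.72, and over those without it -0.65. In abi3-12 at 18 DAP the medians were -0.84 and -0.59, and in abi3-12 dog1-4 at 22 DAP -1.14 and -1.77, so the order was not the same at each stage. No test was made between these subsets. Tissue markers also differed at 22 DAP. Seed coat suberin genes summed to 73.2 to 108 CPM in abi3-12 dog1-4 and 12.8 to 29.7 CPM in wild type, flavonoid genes to 9.20 to 27.8 CPM and 55.3 to 88.0 CPM, mucilage genes to 547 to 621 CPM and 312 to 357 CPM, endosperm genes to 2891 to 4609 CPM and 22994 to 25462 CPM, and embryo storage genes to 5602 to 15594 CPM and 73401 to 120006 CPM. Of single suberin genes, 4 of 6 were lower and 1 was higher. Of these lists 1 of 6 suberin, 1 of 7 flavonoid, 1 of 10 mucilage, 2 of 6 endosperm and 0 of 5 storage genes lay at or under 3 counts in the double mutant. In wild type 1, 1, 1, 3 and 0 did, in the same order. Their part in the result was not tested.

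A mutation of CYP707A2, which slows ABA breakdown, was added to the double mutant in abi3-12 dog1-4 cyp707a2. Against abi3-12 dog1-4 the set was higher in the triple line. At 20 DAP 36 members were higher and 0 lower (median log2 fold change 0.39; all genes, 3.34% and 2.50%). At 22 DAP 83 were higher and 24 lower (median 0.86; all genes, 31.9% and 36.0%), and by totals 59 higher and 31 lower. In dry seed 56 were higher and 27 lower (all genes, 28.0% and 34.3%), and by totals 38 and 40, so that direction depends on the scaling. The count at 20 DAP was 14 without replicate 2 of the double mutant and 8 without replicate 2 of the triple line. At 22 DAP 105 were higher without replicate 1 of the triple line and 56 without its replicate 2. Tissue markers also differed between these lines at 22 DAP. Endosperm genes summed to 13919 to 21354 CPM in the triple line and 2891 to 4609 CPM in abi3-12 dog1-4, and embryo storage genes to 55286 to 107794 CPM in the triple line and 5602 to 15594 CPM in abi3-12 dog1-4. Suberin genes summed to 15.1 to 27.8 CPM in the triple line and 73.2 to 108 CPM in abi3-12 dog1-4, and mucilage genes to 403 to 497 CPM in the triple line and 547 to 621 CPM in abi3-12 dog1-4. In the triple line 3 of 6 endosperm, 1 of 6 suberin, 1 of 10 mucilage and 0 of 5 storage genes lay at or under 3 counts. In abi3-12 dog1-4 2, 1, 1 and 0 did, in the same order. Their part in the result was not tested.

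At 22 DAP the largest rise in the triple line was that of BGLU3 (AT4G22100), with 11.6, 11.7 and 12.4 CPM, against 0.114, 0 and 0.689 CPM in abi3-12 dog1-4 (5.52 ± 0.45, adjusted p = 7.43e-17, edgeR). AT1G14950 had 1295, 783 and 1058 CPM in the triple line, against 34.9, 32.8 and 98.4 CPM (4.24 ± 0.40, adjusted p = 1.17e-14, edgeR). OLEO4 (AT3G27660) had 83.9, 173 and 134 CPM, against 9.40, 4.26 and 19.3 CPM (3.57 ± 0.37, adjusted p = 3.79e-13, edgeR), and PAO (AT3G44880) had 51.3, 72.6 and 56.0 CPM, against 15.5, 11.3 and 16.5 CPM (2.05 ± 0.20, adjusted p = 4.48e-14, edgeR). The groups did not overlap, which for BGLU3 and AT1G14950 was a condition of being named. OLEO4 in the triple line still lay far under the 4886 to 7092 CPM of wild type. Of the falls, AT1G04040, of an acid phosphatase family, had 0.598, 2.48 and 1.45 CPM, against 27.3, 38.2 and 23.8 CPM (-4.31 ± 0.33, adjusted p = 2.95e-18, edgeR). BGLU28 (AT2G44460) had 0.256, 0.551 and 1.83 CPM, against 4.95, 9.94 and 5.86 CPM (-3.0 ± 0.61, adjusted p = 2.2e-05, edgeR).

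Against wild type the triple line had 98 members lower and 14 higher at 18 DAP (median -0.73; all genes, 16.7% and 17.2%) and 99 lower and 24 higher at 20 DAP (-0.75; all genes, 25.8% and 25.9%). At 22 DAP 77 were lower and 26 higher (-0.90; all genes, 22.5% and 22.6%), and in dry seed 30 lower and 40 higher (all genes, 22.2% and 26.0%). By totals 51 were lower and 31 higher at 18 DAP, 45 and 39 at 20 DAP and 45 and 34 at 22 DAP. Without replicate 2 of the triple line, 107 were lower and 22 higher at 22 DAP, and without its replicate 1, 47 and 29. SDI1 (AT5G48850) had 83.7, 324 and 75.7 CPM in the triple line, against 273, 356 and 390 CPM in wild type at 18 DAP (-1.08 ± 0.39, adjusted p = 0.026, edgeR). Replicate 2 of the triple line lay within the wild-type range, and the call was lost in several alternative fits.

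**Figure D5:**
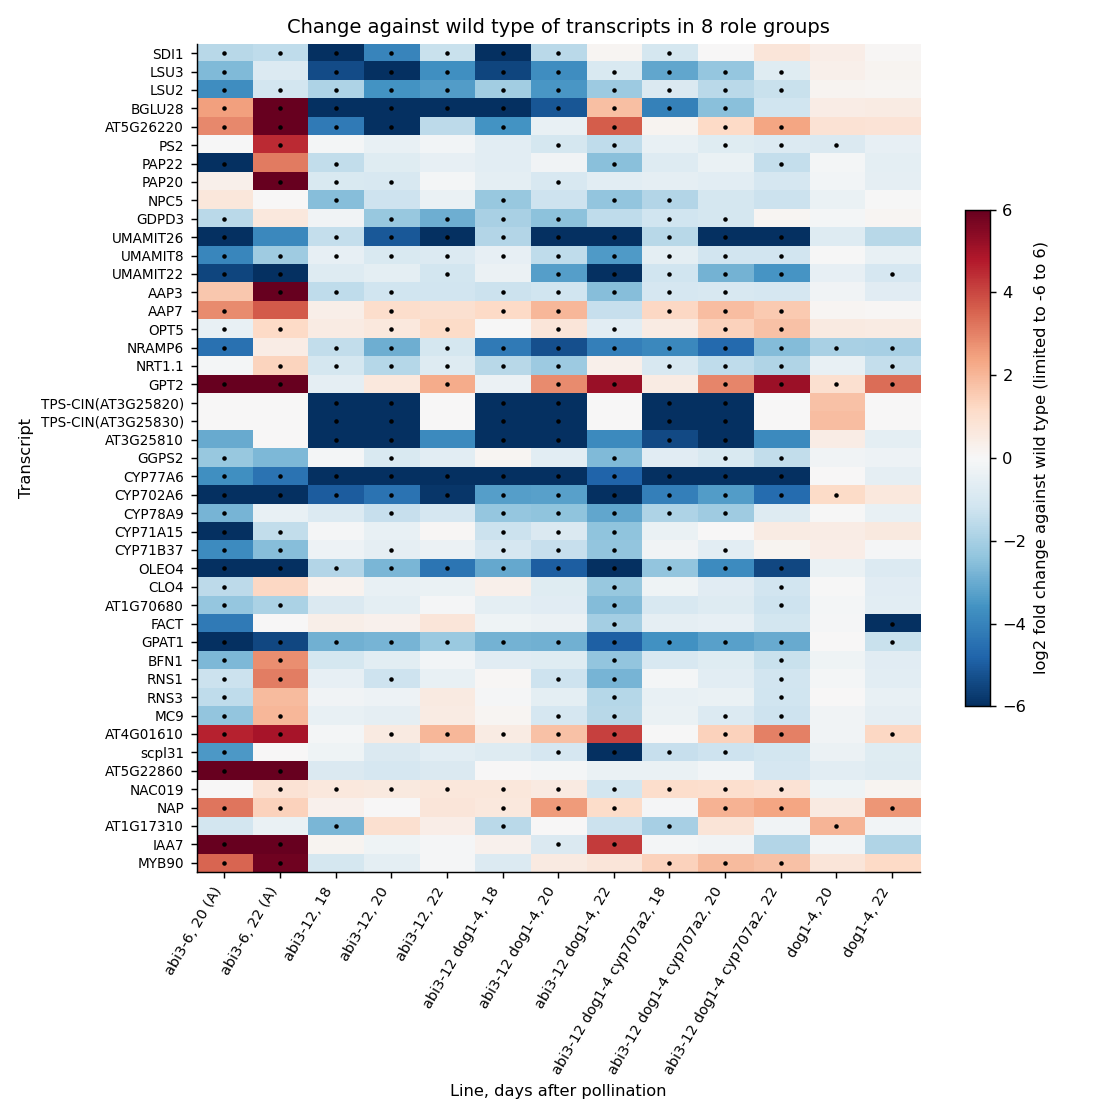
Colour gives the log2 fold change against wild type (limited to -6 to 6) of 45 members, grouped by role from top to bottom, in each line and stage; black points mark calls at an adjusted p under 0.05 (edgeR's quasi-likelihood test). The sulfur-limitation rows are blue in the columns of abi3-12 at 18 and 20 DAP, where 5 of 5 were lower. They carry no point in the dog1-4 column at 20 DAP, where 12.5% of all genes were called.

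The difference between stages was tested itself, as the fold change against wild type at 22 DAP minus that at 18 DAP. In abi3-12 dog1-4 it was negative for 74 members and positive for 41 (median -0.67), against 28.9% and 23.8% of all genes. In abi3-12 it was negative for 6 and positive for 22 (median 0.39), against 5.52% and 5.22%, and 43 were called without replicate 3 of abi3-12 at 22 DAP. In abi3-12 dog1-4 cyp707a2 it was negative for 10 and positive for 30 (median 0.10), against 8.36% and 8.24%. By totals the triple line had 19 negative and 24 positive.

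The remaining lines were sampled as dry seed, where wild type keeps little of the set. In aba2-1 13 were lower and 11 higher (all genes, 6.22% and 9.58%), and the fit of these groups alone called 46 in all. In L2-1 3 were lower and 1 was higher (all genes, 0.722% and 0.292%). How reads of the Cvi DOG1 allele in L2-1 aligned is not known. AT4G01610 had 35.9, 31.8 and 35.0 CPM in L2-1, against 71.2, 90.9 and 77.8 CPM in wild type. The lower ones were AT5G01210 (log2 fold change -1.40 ± 0.36, adjusted p = 0.0287, edgeR), AT4G01610 (-1.22 ± 0.18, adjusted p = 2.25e-06, edgeR) and EXL5 (AT2G17230; -1.39 ± 0.35, adjusted p = 0.0277, edgeR), and the higher one was AT4G29020 (0.83 ± 0.17, adjusted p = 0.00271, edgeR). These 4 are named after their values were seen. In dog1-4 aba2-1 41 were lower and 18 higher (all genes, 23.1% and 25.3%), and by totals 38 and 28. In abi3-12 aba2-1 55 were lower and 21 higher (all genes, 28.9% and 32.6%), and by totals 41 and 31. In abi3-12 dog1-4 aba2-1 46 were lower and 48 higher (all genes, 34.0% and 41.3%), and by totals 36 and 74.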

How the data were processed

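RNA was measured by strand-specific poly(A) RNA-seq of whole seeds. The authors deposited 1 table of raw counts per gene and library. Reads had been aligned and assigned with HISAT2 2.1.0 and StringTie 1.3.2 on TAIR10, per the submitters' processing notes, which also name SAMtools and Cufflinks; the strand setting of the counting is not given in the sources used here, so antisense overlaps are uncertain. All 123 sample columns were used. No value was rescaled before testing.

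The members, lists and role groups were chosen with earlier results of these data known. Batches A and B had separate fits (R 4.3.3, edgeR 4.0.16). Low genes were removed by filterByExpr (minimum count 10, which left 20414 genes in batch A and 20912 in batch B, all 200 members in both), scaling factors came from TMM, and a model with 1 coefficient per group was tested by quasi-likelihood, two-sided. Called means a Benjamini-Hochberg adjusted p under 0.05 over all genes tested. A group at or under 3 counts in every library is at the floor, and its fold is a bound from 3 counts per library. Floors cover counting error only.

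The members named are the 12 with the largest log2 ratio, those next to the limit, members of fixed lists, the 5 with the most counts, and the 2 largest non-overlapping rises and falls (at least 5 CPM in 1 group) in 5 comparisons; others illustrate role groups and were chosen after their values were seen. On data simulated for abi3-12 dog1-4 against wild type at 22 DAP (16193 genes, 200 changed), 93% of 4-fold and 77% of 2-fold changes were recovered. Only genes with an expected count of at least 10 were changed there. In the real comparison 75.2% of all genes were called, and 20 members were at the floor in both groups. The recovered shares therefore do not carry over to it. Alternatives were other scalings, other filters, DESeq2 1.42.0, a fit of the compared groups alone, a replicate block and leaving out each library. Promoters and coding sequences came from RefSeq TAIR10.1. Figures were drawn with matplotlib 3.10.9.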

Additional observations from a re-analysis of the deposited data

Results flagged for a closer look

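Effects at 22 and 18 DAP differed, by the test of the difference itself, for 28 members in abi3-12, 115 in abi3-12 dog1-4 and 40 in the triple line, which also carries cyp707a2. Of all genes tested, 10.7%, 52.6% and 16.6% were called in these lines in the same order. The counts of members lie near those shares, so nothing particular to the set is read from them. For SDI1 (AT5G48850) the log2 fold change against wild type at 22 DAP exceeded that at 18 DAP by 8.47 in abi3-12, 7.86 in abi3-12 dog1-4 and 1.79 in the triple line. For GPT2 (AT1G61800) the difference was 2.75, 5.52 and 4.67 in those lines in the same order, and for AT4G01610 it was 2.1, 3.60 and 3.04. Wild-type libraries are shared by the 3 lines.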

How the results depend on the processing

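Over 259 alternatives of member counts other than leaving out a library (other scalings, no filter, DESeq2, the compared groups alone, a replicate block, other lists), 251 lay within 1.5 times the reported count. A fit of the compared groups alone called 38 members in abi3-12 at 22 DAP, 20 in dog1-4 at 20 DAP, 56 in abi3-12 dog1-4 cyp707a2 at 22 DAP, 46 in aba2-1, 12 in L2-1, 16 for the triple line against abi3-12 dog1-4 at 20 DAP and 16 for the abi3-12 stage difference; library totals called 23 for the triple line at 20 DAP. Leaving out single libraries gave 56 to 85 in abi3-12 at 18 DAP, 23 to 38 in dog1-4 at 22 DAP, 15 to 19 in aba2-1, 1 to 4 in L2-1, 8 to 35 for the triple line against abi3-12 dog1-4 at 20 DAP and 22 to 43 for the abi3-12 stage difference. Replicate numbers do not pair the samples: in 0 of 29 comparisons did every same-numbered pair correlate above 0.1 (-0.286 to 0.199), and with a replicate block 143 members were called in abi3-12 dog1-4 at 22 DAP. Library totals shifted the median of all genes by -0.42 to 1.10 on the log2 scale, and the members' median relative to it by at most 0.48. Of 917 alternatives for 78 tests of single genes, 885 kept direction and side of the threshold, 27 were no longer called, 5 were newly called and 0 changed sign; those lost include SDI1 (AT5G48850) in abi3-12 dog1-4 at 20 DAP, -0.58 by totals. The cause was not tested. Levels near 0 in the depth of single libraries limit dry-seed folds.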
